A study of Mus musculus with 4 samples.

Results

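The genes described here carry fatty acids from the cell surface to their breakdown: binding and activation in the cytosol, the carnitine shuttle into mitochondria, beta oxidation in mitochondria, and beta oxidation in peroxisomes. The members were a list of 36 such genes, each represented by the probe set with the highest mean among those paired with 1 gene symbol. Of these, 34 were found, and all 34 passed the filter on low values. Acsl1 and Acsl3 had no probe set paired with 1 symbol and were not analysed here. The whole table held 19938 genes with such a probe set.

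Total RNA was taken from whole back skin at ZT22, which is 22 hours after lights on, from C57Bl6 mice aged 22 days, an age labelled as telogen, the resting phase of the hair follicle. The 2 heterozygous mice had 1 mutant and 1 wild-type copy of Bmal1 (gene symbol Arntl), a core transcription factor of the circadian clock, and the 2 knockout mice had lost both copies in the germline, so in every cell type. The replicates were littermates, and 1 Affymetrix whole-transcript array was made for each mouse. No wild-type mouse was among the arrays, so every comparison is between knockout and heterozygous skin.

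Long-chain fatty acids are first joined to coenzyme A and are then passed to carnitine by CPT1 on the outer mitochondrial membrane, carried across the inner membrane by a translocase, and returned to coenzyme A by CPT2. Each turn of mitochondrial beta oxidation then runs through a dehydrogenase, a hydratase, another dehydrogenase and a thiolase. Peroxisomes run a parallel pathway, started by acyl-CoA oxidases, that shortens very long and branched chains. In skin these pathways serve muscle, fat, sebaceous glands and epidermis, and nuclear receptors of the PPAR family are known to induce many of the genes.

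Values are log2 expression after quantile normalization, and differences are knockout minus heterozygous. Each difference has limma's moderated standard error (SE), with n = 2 per genotype throughout, and the adjusted p is limma's p adjusted by Benjamini-Hochberg across the 16341 probe sets tested. The p-values rest on the spread between these littermates only. In limma the spread of each gene is also drawn towards that of probe sets with a similar mean. Levels of different genes are not compared, because probe sets differ in their response. Across tested probe sets, correlations between arrays ran from 0.966 to 0.988. The leading principal component held 59.2% of the variance and ordered the arrays as heterozygous array 2 (-22.9), heterozygous array 1 (-7.94), knockout array 2 (10.9) and, highest, knockout array 1. Arntl, the deleted gene, read 8.90 and 9.08 in heterozygous skin and 8.29 and 8.16 in the knockout arrays, a difference of -0.76 (SE 0.12, limma adjusted p = 0.015).

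Fatty acid oxidation genes were mostly higher in knockout skin. Of the 34 members, 31 had a positive difference, against 54.2% of all tested probe sets, and the median difference was 0.30, against 0.02 over all tested probe sets. Both knockout arrays lay above both heterozygous arrays in 24 members, where 27.8% of all tested probe sets did so, and in no member did both lie below, where 22.1% did so. Groups that did not overlap, in either direction, made up 49.8% of all tested probe sets. At an unadjusted limma p under 0.05, 18 members were higher and 0 were lower. The background at that threshold was 17.9% of all tested probe sets, made up of 11.6% higher and 6.38% lower. After adjustment over all tested probe sets, 2 members passed, Acot1 and Acox3, where 1.98% of all probe sets (323) passed. That adjusted call was fragile. When probe sets paired with several genes also entered the limma fit (17557 tested), 0 passed over the whole array and 2713 were at an unadjusted p under 0.05. The adjusted p was then 0.179 for Acot1 and 0.17 for Acox3, and 16 members reached the unadjusted threshold, which 15.5% of probe sets did. The count of members past the adjusted threshold was also 0 without a filter, without a trend in the variance prior, without heterozygous array 2 and without knockout array 1.

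Heterozygous array 2 was most often the lowest array and knockout array 1 most often the highest. Taken as the deviation from each gene's mean over the 4 arrays, the median over the 34 members was -0.24 in heterozygous array 2, -0.06 in heterozygous array 1, 0.08 in knockout array 2 and 0.23 in knockout array 1. Heterozygous array 2 was the lowest array in 25 of the 34 members and knockout array 1 the highest in 28, and the full order held in 19. The medians stood in the order of the arrays on the leading principal component. For these counts and similar ones below, the share over all tested probe sets was not computed. The mean over 14919 tested genes, 1 probe set each, was 8.50 and 8.42 in heterozygous skin and 8.52 and 8.48 in the knockout arrays. There too heterozygous array 2 was lowest and knockout array 1 highest. Without heterozygous array 2 the members' median difference was 0.23, and 13 members were at an unadjusted p under 0.05 in limma, against 13.8% of all tested probe sets. Without knockout array 1 the median was 0.21, and 11 members were at that threshold, against 10.3%. In bulk skin, more cells of a type and more RNA per cell cannot be told apart, and this holds for every difference below.

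**Figure D1:**
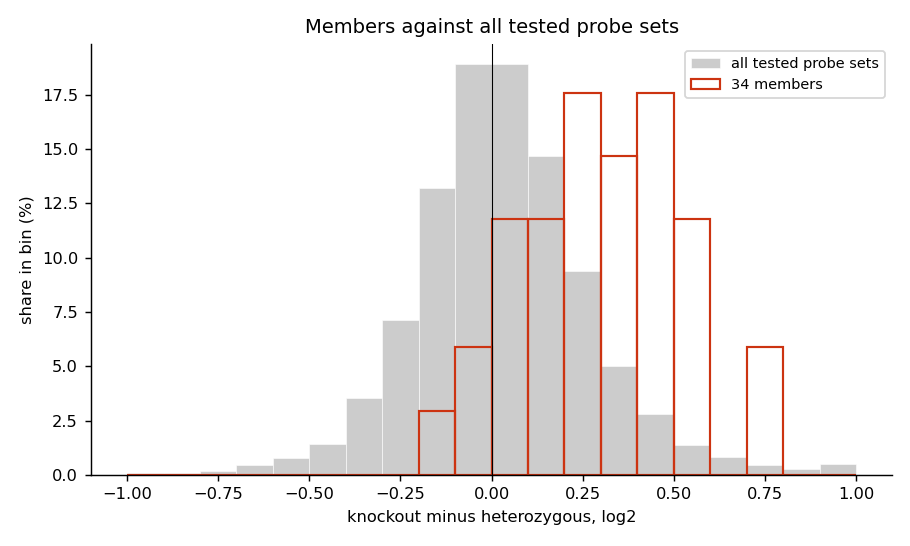
Share of the 34 members (red outline) and of all tested probe sets (grey) in bins of the log2 difference, knockout minus heterozygous, with differences beyond 1 in either direction counted in the end bins. Of the members, 67.6% had a difference of at least 0.2, where 20.6% of all tested probe sets did.

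**Figure D2:**
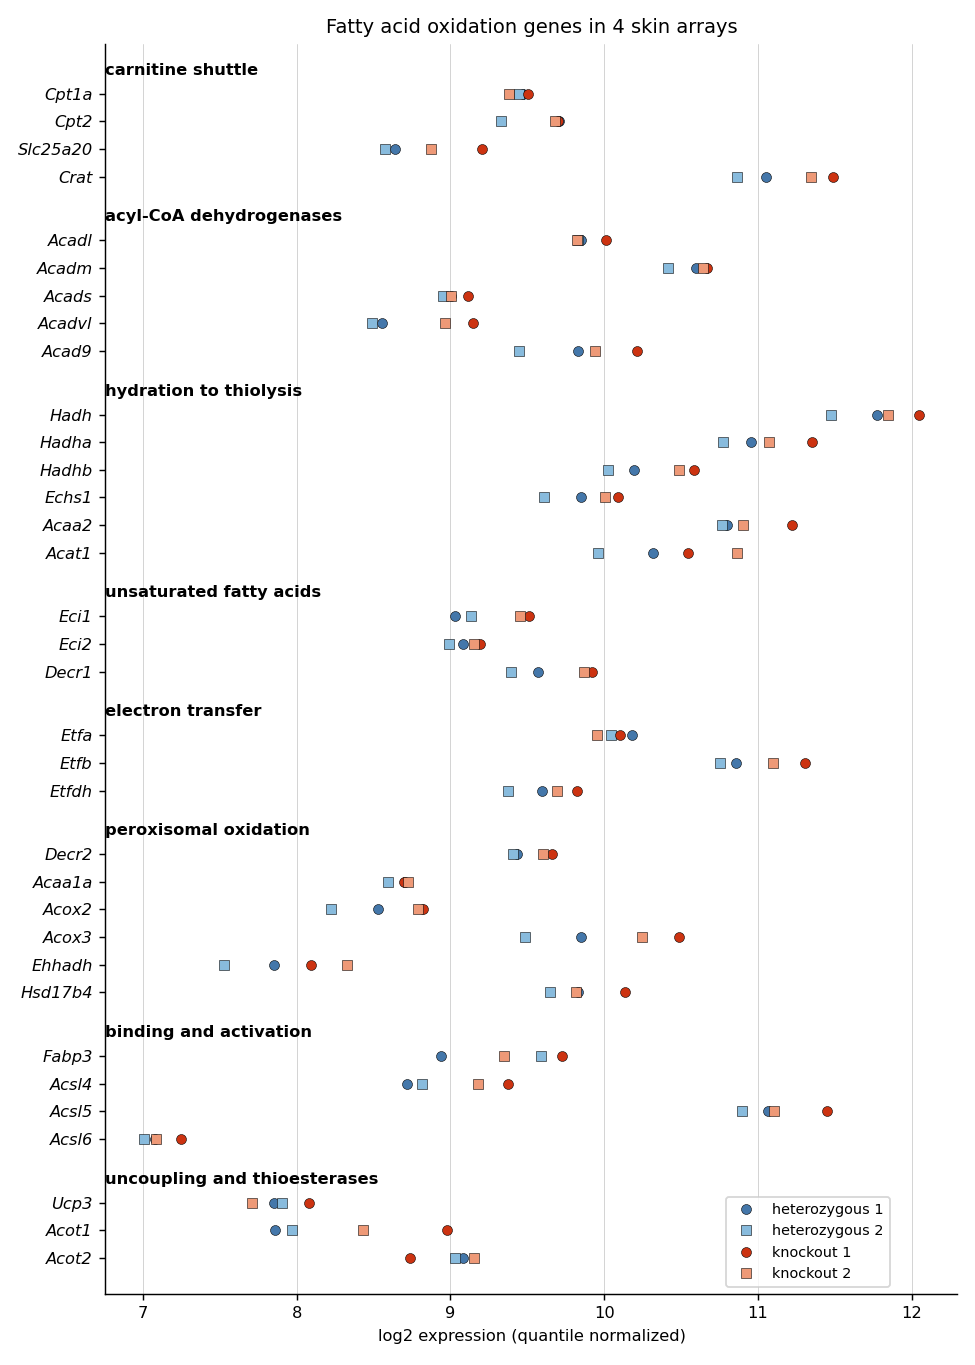
Log2 expression of each member in the 4 arrays, grouped by role, with blue for the heterozygous and red for the knockout arrays, circles for array 1 and squares for array 2. Both knockout arrays lie to the right of both heterozygous arrays in 24 of the 34 members.

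In the carnitine shuttle, the carrier and the acetyl transferase were higher in knockout skin and the palmitoyl transferases were not distinguishable between genotypes. Crat, carnitine acetyltransferase, which moves short acyl groups in mitochondria and peroxisomes, read 11.05 and 10.86 in heterozygous skin and 11.48 and 11.35 in the knockout arrays. The groups did not overlap, and the difference was 0.46 (SE 0.12), or 37.4% more signal, with a limma adjusted p of 0.0892. Slc25a20, the translocase of the inner membrane, read 8.64 and 8.57 against 9.21 and 8.87. Its groups also did not overlap, and it differed by 0.44 (SE 0.13, limma adjusted p = 0.128), or by 0.27 without knockout array 1. Cpt2, which returns the acyl group to coenzyme A, read 9.71 and 9.33 in heterozygous skin and 9.70 and 9.68 in the knockout arrays. Only heterozygous array 2 stood lower, and the difference of 0.17 (SE 0.14) was -0.02 without that array.

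Cpt1a, the rate-controlling transferase of the outer membrane, showed no difference beyond the spread of the arrays. It read 9.47 and 9.44 in heterozygous skin and 9.51 and 9.38 in the knockout arrays, so the knockout values lay on both sides of the heterozygous ones. Its difference was -0.01 (SE 0.11), and it was 0.10 with the values as deposited and 0.13 after median centring. Cpt1b, the muscle form, had a probe set paired with a further gene and was not analysed here. The 250 bases before the start of Cpt1a are shown, from RefSeq on GRCm38.p6 at chr19:3323051-3323300 on the plus strand. They are shown because this window holds the nuclear receptor core sequence AGGTCA. The core is present here as its reverse complement in capitals, with its first base 94 bases before the start.
Cpt1a: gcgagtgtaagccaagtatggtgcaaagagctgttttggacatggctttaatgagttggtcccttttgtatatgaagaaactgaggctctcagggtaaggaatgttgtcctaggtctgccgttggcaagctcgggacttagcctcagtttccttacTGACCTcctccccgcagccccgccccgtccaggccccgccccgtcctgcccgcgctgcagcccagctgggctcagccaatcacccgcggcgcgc

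Of the 5 acyl-CoA dehydrogenases, which take the first step of each turn, the enzymes for very long chains and ACAD9 were higher, while those for long, medium and short chains differed by at most 0.15. Acadvl, the very-long-chain dehydrogenase of the inner membrane, read 8.55 and 8.49 in heterozygous skin and 9.14 and 8.96 in the knockout arrays. All knockout values exceeded all heterozygous values, with a difference of 0.53 (SE 0.12), or 44.9%, and a limma adjusted p of 0.0507. With 1 array left out its difference ran from 0.44 to 0.62. Acad9, a related protein that also assembles respiratory complex I, read 9.83 and 9.44 against 10.21 and 9.94. It differed by 0.44 (SE 0.15, limma adjusted p = 0.17), and by 0.25 without heterozygous array 2. Acadm, the medium-chain enzyme, read 10.60 and 10.42 against 10.67 and 10.64. The groups did not overlap, but the gap between them was small, and the difference was 0.15 (SE 0.12), or 0.056 without heterozygous array 2. Acadl and Acads, for long and short chains, both differed by 0.08 with overlapping arrays.

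The window before Acadvl, on the minus strand of chr11:70015429-70015678, also holds AGGTCA, with its first base 87 bases before the start. It is shown beside that of Cpt1a because the same letters stand at a similar distance before both genes.
Acadvl: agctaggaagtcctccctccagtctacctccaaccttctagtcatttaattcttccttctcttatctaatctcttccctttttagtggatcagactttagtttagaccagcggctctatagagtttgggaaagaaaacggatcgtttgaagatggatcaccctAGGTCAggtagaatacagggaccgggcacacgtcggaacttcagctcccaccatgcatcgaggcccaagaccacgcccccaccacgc

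The enzymes of hydration, the later dehydrogenation and thiolysis all had positive differences. In each of the 6 the knockout arrays lay above the heterozygous arrays, where 27.8% of all tested probe sets did so, and 5 were higher at an unadjusted limma p under 0.05, where 11.6% were. None of the 6 passed after adjustment. Hadha and Hadhb encode the subunits of the mitochondrial trifunctional protein, which carries out these steps for long chains. Hadha read 10.95 and 10.77 in heterozygous skin and 11.35 and 11.07 in the knockout arrays, a difference of 0.35 (SE 0.13, limma adjusted p = 0.205), or 0.21 without knockout array 1. Hadhb read 10.19 and 10.02 against 10.59 and 10.49, a difference of 0.43 (SE 0.12, limma adjusted p = 0.0956). A further Hadhb probe set differed by 0.45. Both subunits were thus higher in both knockout arrays, by 27.4% and 34.5%.

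These genes lie head to head on chromosome 5, with 273 bases between their start sites and 228 bases shared by their upstream windows, so they are not independent observations of a promoter. The window is shown because Hadha and Hadhb were both higher and read in opposite directions from it. It runs 5′ to 3′ towards Hadha, on the minus strand of chr5:30154981-30155230, and holds none of the motifs searched.
Hadha: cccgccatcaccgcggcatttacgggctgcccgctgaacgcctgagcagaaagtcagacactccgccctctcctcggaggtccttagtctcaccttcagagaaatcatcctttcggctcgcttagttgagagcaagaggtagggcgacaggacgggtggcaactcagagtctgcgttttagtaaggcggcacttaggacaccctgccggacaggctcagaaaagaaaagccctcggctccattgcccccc

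Acat1, the mitochondrial acetoacetyl-CoA thiolase, which also acts on ketone bodies, had the largest difference of the 21 mitochondrial members. It read 10.32 and 9.96 in heterozygous skin and 10.55 and 10.86 in the knockout arrays, and differed by 0.57 (SE 0.15, limma adjusted p = 0.0938). Unlike most members it was highest in knockout array 2, and its difference was 0.39 without heterozygous array 2. The remaining enzymes were the short-chain hydroxyacyl-CoA dehydrogenase Hadh, which differed by 0.32, the short-chain hydratase Echs1 by 0.32, and the thiolase Acaa2 by 0.28. Without heterozygous array 2 Hadh differed by 0.17 and Echs1 by 0.19, and without knockout array 1 Acaa2 differed by 0.12.

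The window before Echs1 is a further one with AGGTCA, 83 bases before the start on the minus strand of chr7:140116422-140116671, and is shown with those of Acadvl and Cpt1a. The windows of Acadm, Acsl6 and Ucp3, which did not reach an unadjusted p under 0.05, hold these letters too and are not printed.
Echs1: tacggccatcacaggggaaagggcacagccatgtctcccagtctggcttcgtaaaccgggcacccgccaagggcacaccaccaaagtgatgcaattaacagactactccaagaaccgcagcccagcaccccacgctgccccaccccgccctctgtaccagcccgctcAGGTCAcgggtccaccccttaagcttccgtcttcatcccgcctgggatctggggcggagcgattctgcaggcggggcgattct

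The auxiliary enzymes that prepare unsaturated fatty acids for oxidation were higher in both knockout arrays. Eci1, an enoyl-CoA isomerase of mitochondria, read 9.03 and 9.14 in heterozygous skin and 9.51 and 9.45 in the knockout arrays. It differed by 0.40 (SE 0.11, limma adjusted p = 0.0983). Decr1, the mitochondrial dienoyl-CoA reductase, read 9.57 and 9.39 against 9.92 and 9.87, a difference of 0.42 (SE 0.12, limma adjusted p = 0.0983). In both genes the knockout arrays lay within 0.06 of each other and clear of the heterozygous arrays. Eci2, an isomerase found in mitochondria and peroxisomes, read 9.08 and 8.99 against 9.19 and 9.15, and its difference of 0.14 (SE 0.11) was close to its error.

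Electrons from the acyl-CoA dehydrogenases pass through the electron transfer flavoprotein to the respiratory chain, and here the members went apart. Etfb, its beta subunit, read 10.86 and 10.75 in heterozygous skin and 11.31 and 11.10 in the knockout arrays, a difference of 0.40 (SE 0.12, limma adjusted p = 0.131). Etfdh, the dehydrogenase that hands the electrons to ubiquinone, read 9.59 and 9.37 against 9.82 and 9.69, a difference of 0.28 (SE 0.12), or 0.17 without heterozygous array 2. Etfa, the alpha subunit, read 10.18 and 10.04 against 10.10 and 9.95. Its arrays overlapped, and its difference was -0.08 (SE 0.12), or 0.04 with the values as deposited and 0.07 after median centring. The difference between the subunits was not itself tested.

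All 6 peroxisomal members had positive differences, as did 54.2% of all tested probe sets, and 3 were higher at an unadjusted limma p under 0.05, where 11.6% of all tested probe sets were. Acox3, a branched-chain acyl-CoA oxidase, had the largest. It read 9.85 and 9.48 in heterozygous skin and 10.49 and 10.25 in knockout skin. The knockout arrays lay clear of the heterozygous ones, and the difference was 0.70 (SE 0.15), or 62.7%, with a limma adjusted p of 0.0438. Leaving out heterozygous array 2 gave 0.52 and leaving out heterozygous array 1 gave 0.88, and the adjusted p was 0.228 without knockout array 1.

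Acox2, which acts on branched chains and bile acid intermediates, read 8.53 and 8.22 in heterozygous skin and 8.82 and 8.79 in the knockout arrays. It differed by 0.43 (SE 0.13, limma adjusted p = 0.119), and by 0.28 without heterozygous array 2. Ehhadh, the bifunctional enzyme for straight chains, read 7.85 and 7.53 against 8.09 and 8.32, a difference of 0.52 (SE 0.14, limma adjusted p = 0.0964). In these oxidases and in Ehhadh the groups did not overlap.

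The other peroxisomal members had smaller differences. Hsd17b4, the bifunctional enzyme for branched chains, read 9.83 and 9.65 in heterozygous skin and 10.14 and 9.81 in the knockout arrays, a difference of 0.23 (SE 0.14), or 0.07 without knockout array 1. Decr2, the peroxisomal dienoyl-CoA reductase, read 9.43 and 9.41 against 9.66 and 9.60, a difference of 0.21 (SE 0.11). Acaa1a, a peroxisomal thiolase, read 8.70 and 8.59 against 8.70 and 8.73, a difference of 0.06 (SE 0.11). Of these 3, Decr2 alone had groups that did not overlap. The window before Acox3, on the plus strand of chr5:35582784-35583033, is shown because this gene had the smallest p of all members, and it holds none of the motifs searched.
Acox3: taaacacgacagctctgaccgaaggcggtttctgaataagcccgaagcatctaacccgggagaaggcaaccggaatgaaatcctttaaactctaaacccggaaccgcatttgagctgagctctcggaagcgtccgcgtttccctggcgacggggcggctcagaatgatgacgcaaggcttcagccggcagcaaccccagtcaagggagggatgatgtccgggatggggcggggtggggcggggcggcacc

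Mitochondrial and peroxisomal members could not be told apart in the median of their differences. The median was 0.32 over the 21 mitochondrial members and 0.33 over the 6 peroxisomal ones, and the medians differed by -0.02 (mitochondrial minus peroxisomal). With 1 array left out this gap ran from -0.086 to 0.00682, and it was 0.0012 with an offset of 64. Of the mitochondrial members 18 had positive differences, 14 had both knockout arrays above both heterozygous arrays, and 12 were higher at an unadjusted limma p under 0.05. The shares of all tested probe sets were 54.2%, 27.8% and 11.6%. By array, the median deviation of the mitochondrial members was -0.03 and -0.25 in heterozygous skin and 0.20 and 0.07 in the knockout arrays. The corresponding values of the peroxisomal members were -0.08, -0.29, 0.19 and 0.14. Heterozygous array 2 was the lowest array in all 6 peroxisomal members and in 15 of the 21 mitochondrial ones. Without heterozygous array 2 the medians were 0.19 and 0.24.

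**Figure D3:**
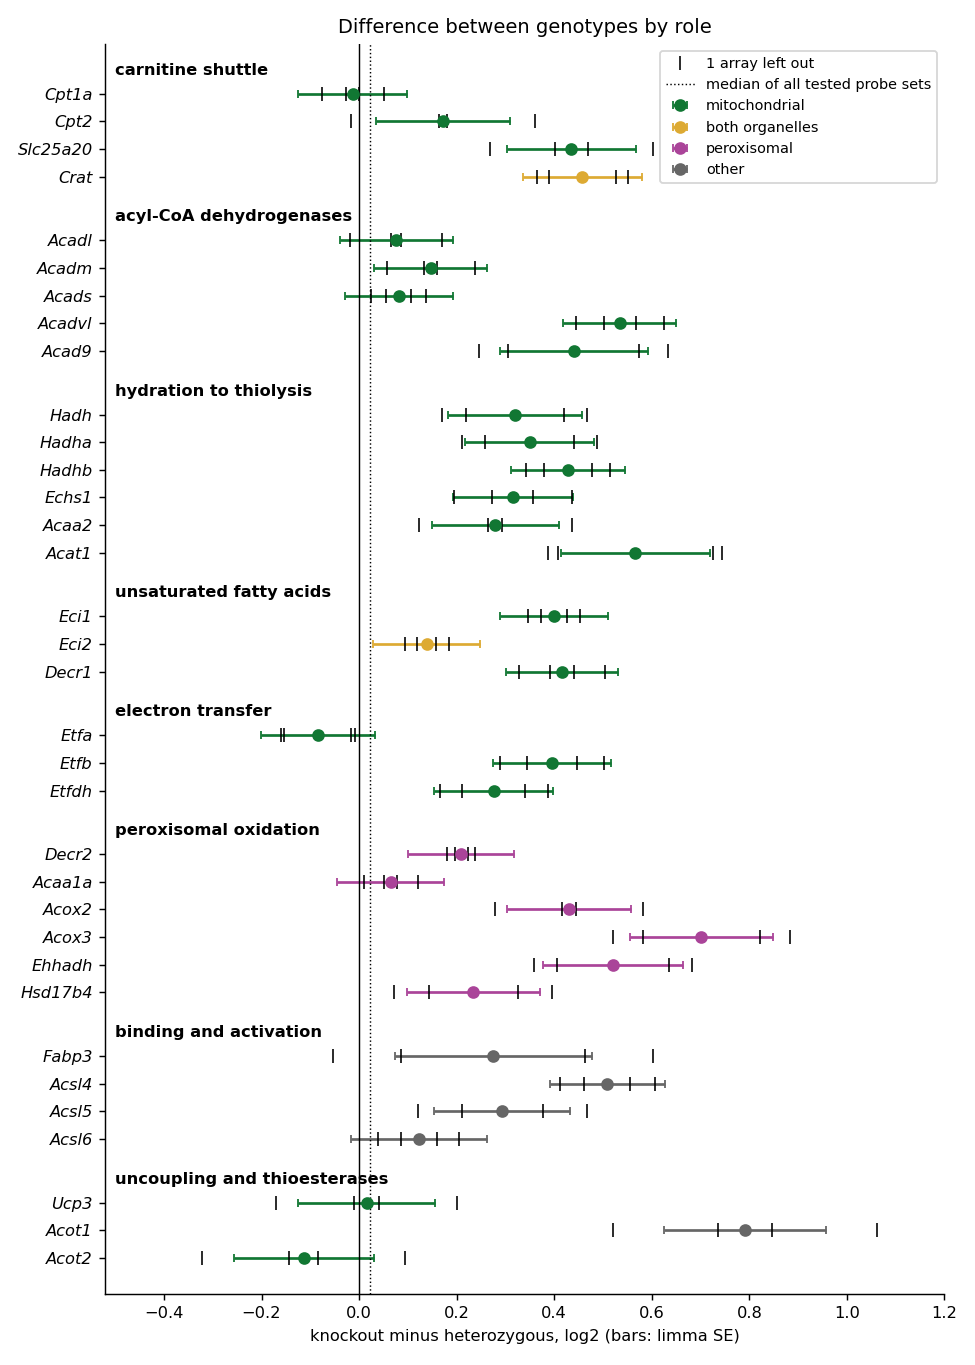
Log2 difference between genotypes for each member, knockout minus heterozygous, with limma's SE as bars, black ticks for the difference when 1 array is left out, and a dotted line at the median of all tested probe sets (0.02). Mitochondrial members (green) ran from -0.11 to 0.57 and peroxisomal members (purple) from 0.06 to 0.70, with medians of 0.32 and 0.33.

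Among the genes for binding and activation, Acsl4 was higher in both knockout arrays. Acsl4, a long-chain acyl-CoA synthetase that prefers arachidonic acid, read 8.72 and 8.81 in heterozygous skin and 9.37 and 9.18 in the knockout arrays. Its difference was 0.51 (SE 0.12), or 42.3%, with a limma adjusted p of 0.0626. Acsl5, a synthetase of mitochondria and endoplasmic reticulum, read 11.06 and 10.90 against 11.45 and 11.10, a difference of 0.29 (SE 0.14). It was 0.12 without knockout array 1. Acsl6, known best from brain, differed by 0.12.

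Fabp3, the fatty acid binding protein of heart and skeletal muscle, had the widest spread within the heterozygous group of all members. It read 8.94 and 9.59 in heterozygous skin and 9.73 and 9.35 in the knockout arrays, so the groups overlapped. The difference was 0.27 (SE 0.20), with -0.05 without heterozygous array 1 and 0.60 without heterozygous array 2. A further Fabp3 probe set differed by 0.24. The median deviations of the slow-fibre and fast muscle genes, given below, were also higher in heterozygous array 2 than in heterozygous array 1. The fast muscle median was highest in knockout array 1, as Fabp3 was, and the slow-fibre median in heterozygous array 2. The part of either list in the Fabp3 values was not tested.

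The acyl-CoA thioesterases Acot1 and Acot2, which release free fatty acids from coenzyme A in the cytosol and in mitochondria, are close relatives and neighbours on chromosome 12. Acot1 read 7.86 and 7.97 in heterozygous skin and 8.97 and 8.43 in the knockout arrays. It had the largest difference of all members at 0.79 (SE 0.17), or 73.1%, with a limma adjusted p of 0.0443, and the difference was 0.52 without knockout array 1 (adjusted p = 0.249). Acot2 read 9.08 and 9.03 against 8.73 and 9.15. Its knockout arrays lay on both sides of the heterozygous ones, and its difference was -0.11 (SE 0.14), or 0.09 without knockout array 1, 0.00693 with the values as deposited and 0.04 after median centring.

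Whether the genes differed from each other in their response was not tested. Transcripts of this gene family are alike in sequence, and how far their probes cross-hybridize was not tested. The upstream windows of the neighbours are shown because the genes are neighbours, with start sites 21641 bases apart on the same strand, and Acot1 had the largest difference of all members. They are at chr12:84009252-84009501 for Acot1 and chr12:83987611-83987860 for Acot2, both on the plus strand, and neither holds any of the motifs searched.
Acot1: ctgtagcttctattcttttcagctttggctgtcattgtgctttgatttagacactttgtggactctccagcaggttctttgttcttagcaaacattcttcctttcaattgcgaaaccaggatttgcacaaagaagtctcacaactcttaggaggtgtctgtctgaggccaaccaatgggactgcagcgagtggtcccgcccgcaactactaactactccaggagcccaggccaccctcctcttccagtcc
Acot2: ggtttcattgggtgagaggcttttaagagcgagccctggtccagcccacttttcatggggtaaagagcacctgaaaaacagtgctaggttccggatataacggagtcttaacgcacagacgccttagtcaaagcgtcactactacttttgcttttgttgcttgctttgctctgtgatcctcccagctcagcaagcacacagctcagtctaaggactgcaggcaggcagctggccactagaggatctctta

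Ucp3, a mitochondrial carrier of muscle that is induced when fatty acids are used, read 7.85 and 7.91 in heterozygous skin and 8.08 and 7.71 in knockout skin. The knockout arrays lay on both sides of the heterozygous ones, and its difference was 0.02 (SE 0.14).

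Upstream windows of 250 bases were found for 30 of the 36 listed genes. They were searched on both strands for the E-box CACGTG, which CLOCK and BMAL1 bind, for the receptor core AGGTCA, for TCAAGGTCA, an element of estrogen-related receptors that contains the core, and for the DR1 element that PPAR and RXR bind, a direct repeat of the core with a single base between. None of the 30 members held CACGTG, which 9.3% of 11774 tested genes did. The core was in 6 of the 30 members, namely Acadm, Acadvl, Acsl6, Cpt1a, Echs1 and Ucp3, and in 13.7% of tested genes. The longer receptor element was in Acsl6 alone, at 0.34% of tested genes, and the direct repeat in no member, at 0.034%. Of the 6 members with the core, Acadvl and Echs1 were at an unadjusted limma p under 0.05 and Acadm, Acsl6, Cpt1a and Ucp3 were not. At that threshold were 52.9% of all 34 members and 17.9% of all tested probe sets. A relation between the core and the differences was not tested. The window covers only the bases next to the start, and the array data do not measure binding.

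Other genes of the pathway were read from lists chosen by role. Of 90 found, 87 were tested, and at an unadjusted limma p under 0.05 there were 22 higher and 1 lower, against 11.6% and 6.38% of all tested probe sets. Their median difference was 0.14. Other peroxisomal genes came closest to the members: of 24 tested, 23 had positive differences and 12 were at that threshold, all higher, with a median of 0.31. Among them were Pex19 (0.53, SE 0.12, limma adjusted p = 0.0530), Pex16 (0.52, SE 0.11) and Pecr (0.45, SE 0.12). PEX19 and PEX16 insert membrane proteins into peroxisomes, and PECR is a trans-2-enoyl-CoA reductase. Both knockout arrays lay above both heterozygous arrays in 19 of the 24, where 27.8% of all tested probe sets did so. Heterozygous array 2 was the lowest array in 23 of the 24. Counts of positive differences, here and in the lists below, stand beside 54.2% positive over all tested probe sets.

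The other mitochondrial acyl-CoA enzymes had a median of 0.18, with 16 of 17 positive and 3 higher at an unadjusted limma p under 0.05. That count is near the background of 11.6% and is no result about the list. Mlycd, the decarboxylase that removes malonyl-CoA, the inhibitor of CPT1, read 7.56 and 7.49 in heterozygous skin and 8.31 and 8.22 in the knockout arrays. The arrays of each genotype lay within 0.09 of each other, and the difference was 0.74 (SE 0.12, limma adjusted p = 0.0149), but its adjusted p was 0.0981 (limma) with probe sets of several genes in the test and 0.125 without knockout array 1. Pcca and Pccb, the subunits of propionyl-CoA carboxylase, which takes up the end product of odd chains, differed by 0.46 and 0.40.

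Genes of uptake and lipolysis showed no common direction. Of 15 tested, 7 had positive differences, with a median of -0.01, and at an unadjusted limma p under 0.05 there were 4 higher and 1 lower, where 11.6% and 6.38% of all tested probe sets were. The smallest p values were those of Slc27a4, an acyl-CoA synthetase of epidermal fatty acid uptake (0.62, SE 0.14, limma adjusted p = 0.0627), Fabp5, the epidermal fatty acid binding protein (0.39, SE 0.13), and Mgll, which cleaves monoacylglycerol (0.37, SE 0.13). Carnitine synthesis, carnitine uptake and the remaining carnitine acyltransferases had a median of -0.0016 over 7 genes, with 0 at that threshold. Here Cpt1c differed by -0.13, Crot by 0.11 and Aldh9a1 by 0.09.

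Among transcriptional regulators, 15 of 18 had positive differences, with a median of 0.10, and 2 were higher at an unadjusted limma p under 0.05, a share near the background of 11.6%. Ppargc1a, a coactivator of mitochondrial genes, read 7.90 and 7.88 in heterozygous skin and 8.40 and 8.45 in the knockout arrays. It differed by 0.54 (SE 0.11, limma adjusted p = 0.0419), which became 0.134 with probe sets of several genes in the test, 0.0804 without a filter and 0.198 without knockout array 1. Tfam, a factor for mitochondrial DNA, differed by 0.62 (SE 0.14, limma adjusted p = 0.0565), and Lpin1, a coactivator and phosphatidate phosphatase, by 0.28 (SE 0.13). The receptor genes Ppara (0.12), Ppard (0.23) and Pparg (0.16) did not reach an unadjusted p under 0.05 and, unlike those above, were chosen after their values were seen. In the list of ketone body and fuel switch genes, 5 of 6 had positive differences, with a median of 0.14. Plin2, a lipid droplet coat protein, differed by 0.60 (SE 0.15, limma adjusted p = 0.0783), Pdk2 by 0.22 and Bdh1 by 0.25.

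Markers of muscle and of sebaceous glands were also higher in knockout skin. Of 21 genes of fast or all skeletal muscle fibres, 20 had positive differences and 20 were higher at an unadjusted limma p under 0.05, where 11.6% of all tested probe sets were, with a median of 0.53. Their summed linear signal was 72706 and 76339 in heterozygous skin and 119235 and 98387 in the knockout arrays. Among them, Myh1 differed by 1.32, Des by 0.97 and Casq1 by 0.82. The median deviation of this list was lowest in heterozygous array 1 at -0.35, with -0.21 in heterozygous array 2, 0.42 in knockout array 1 and 0.11 in knockout array 2. Heterozygous array 1 was the lowest array in 15 of these 21 genes and in 4 of the 34 members. Knockout array 1 was the highest in 20 of these 21 genes and in 28 of the 34 members.

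Slow-fibre genes, from the fibres that rely most on fatty acids, had no common direction, with 3 of 8 positive and a median of -0.47. Casq2 differed by 2.45, Myl2 by -1.16 and Myh7 by -0.73. Without heterozygous array 2 Myl2 differed by -0.22 and Myh7 by -0.34, and without heterozygous array 1 they differed by -2.09 and -1.11. Their summed linear signal was 3226 and 4292 in heterozygous skin and 4396 and 3593 in the knockout arrays, and their median deviation was 0.65 in heterozygous array 2 and between -0.29 and -0.19 in the others.

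All 7 sebocyte markers were higher at an unadjusted limma p under 0.05, where 11.6% of all tested probe sets were, with a median of 0.65. Awat1 differed by 1.12, Elovl3 by 0.82 and Scd3 by 0.65, the last by 0.41 without heterozygous array 2. Their summed linear signal was 15945 and 12041 in heterozygous skin and 22332 and 22226 in the knockout arrays. Knockout array 1 was the highest array in 3 of the 7 and knockout array 2 in 4, where knockout array 1 was the highest in 28 of the 34 members. Heterozygous array 2 was the lowest array in 6 of the 7, as in 25 of the 34 members. That was not particular to sebocytes. The same array was lowest in 8 of 11 white adipocyte, 5 of 6 differentiated keratinocyte and 5 of 6 dermal fibroblast markers. It was lowest in 4 of 8 brown adipocyte, 6 of 21 fast muscle and 0 of 8 slow muscle markers. For basal keratinocytes, macrophages and endothelium the counts were 3 of 7, 2 of 6 and 0 of 6. White adipocyte markers had a median of 0.10, with 9 of 11 positive and summed signals of 22716, 16489, 19825 and 22151 in the same order of arrays. Of these Lep differed by -0.60, Retn by 0.47 and Slc2a4 by 0.30. Without heterozygous array 1 Lep differed by -0.26, without heterozygous array 2 Retn differed by 0.11, and without knockout array 1 Slc2a4 differed by 0.17. In the brown adipocyte list, Ucp1, which defines that cell type, lay below the filter in these arrays, and 5 of 8 tested genes had positive differences, with a median of 0.13 and summed signals of 6085, 6427, 8469 and 8619. At an unadjusted limma p under 0.05, 4 of the 8 were higher and 1 was lower, where 11.6% and 6.38% of all tested probe sets were. Negative differences were found in 3 of the 8. Its Cidea (0.70), Cox8b (0.63) and Ppargc1a (0.54), the 3 with the smallest p, are also expressed in sebocytes or muscle. All muscle and sebocyte markers found passed the filter. The part of muscle or sebaceous cells in the members' differences was not tested.

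**Figure D4:**
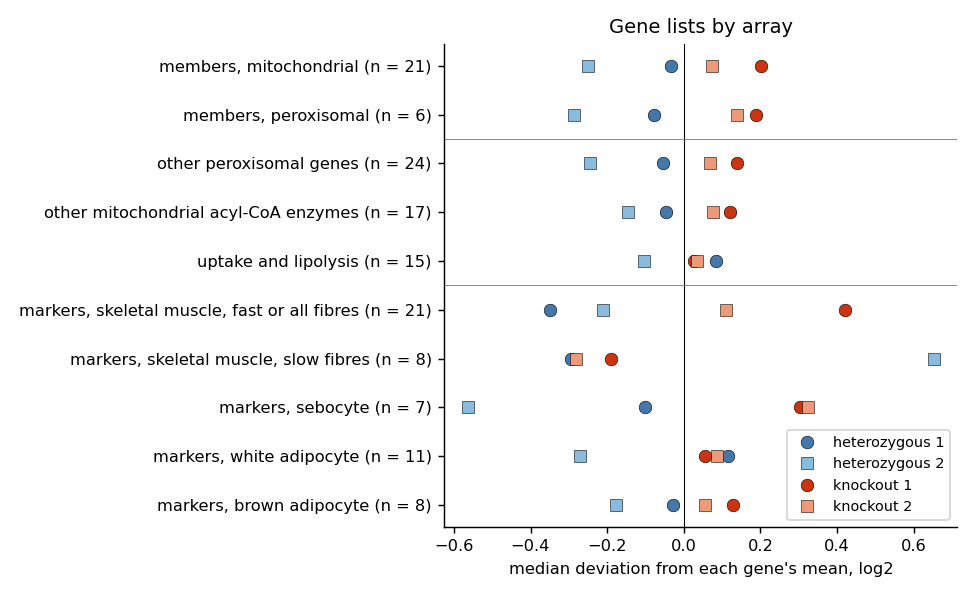
Median over the genes of each list of the deviation from a gene's own mean over the 4 arrays, in log2, with blue for heterozygous and red for knockout arrays. Both organelles' members and the other peroxisomal genes run from heterozygous array 2 (lowest) to knockout array 1 (highest). The other mitochondrial acyl-CoA enzymes and the brown adipocyte markers do so too. The fast muscle markers are lowest in heterozygous array 1 and highest in knockout array 1. The sebocyte markers are lowest in heterozygous array 2 and highest in knockout array 2, and the slow muscle markers are highest in heterozygous array 2.

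Markers of the other cells of skin differed little as lists. Medians were -0.06 over 7 genes of basal keratinocytes, 0.06 over 6 of differentiated keratinocytes, 0.07 over 6 of dermal fibroblasts, -0.05 over 6 of endothelium and -0.10 over 6 of macrophages. All of these genes passed the filter. The smallest p values in these lists were those of Itga6 (-0.28), Krt15 (0.22) and Krt5 (0.19) in the basal layer, Krtdap (-0.17), Lor (0.16) and Sbsn (0.10) above it, Col3a1 (0.20), Dcn (-0.10) and Pdgfra (0.08) in fibroblasts, Vwf (-0.26), Kdr (0.19) and Tek (-0.08) in endothelium, and Cd68 (-0.65), Lyz2 (-0.16) and Adgre1 (-0.13) in macrophages. Of these 15, Itga6 and Cd68 were lower at an unadjusted limma p under 0.05, where 6.38% of all tested probe sets were. The 15 were picked for the smallest p in their lists, so that count is no result about the lists. The differences of all 15 moved by over 1.5 times when 1 array or another was left out, as did those of 22 of the 34 members.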

How the data were processed

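The authors deposited 1 table of log2 values for 35557 probe sets in 4 arrays, made with PLIER 2.0 and Affymetrix Expression Console 1.1.1 according to the submitters' processing notes. The log base is read from the range of the deposited values (2.54 to 14.9), and the sources used here state no step between arrays. A probe set summarizes probes along a transcript, so a change in part of a transcript can be hidden. Precision is limited by the number of arrays.

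Quartiles of the deposited arrays differed by up to 0.337, and the arrays were quantile normalized. In the platform annotation, 21789 probe sets had 1 gene symbol, 1621 had several and 12147 lacked any. Symbols of 21698 were updated by gene identifier with the RefSeq table of GRCm38.p6, and a listed name that is no current symbol was matched through its synonyms. Tested were the 16341 probe sets with 1 symbol and a mean above the 25th percentile (6.67). Genotypes were compared with limma 3.58.1 in R 4.3.3 (eBayes with a trend, 2 residual degrees of freedom), with a threshold of 0.05 after Benjamini-Hochberg adjustment. The procedure was tested on simulated data. No arrays were duplicates: equal values made up at most 0.104% of any array pair.

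The members and gene lists were chosen with earlier results of these data known, and no list was tested as a set. Named are all members, and array values are given for the 3 with the smallest p in each role, all peroxisomal members and both thioesterases. Of each other list the 3 genes with the smallest p are named. Cpt1a's array values, and genes said to be so, were chosen after their values were seen. Promoter windows are RefSeq sequences of GRCm38.p6. Alternatives were the deposited values, median centring, other filters, priors and probe set rules, offsets of 16 and 64, the number in the labels as a block, each array left out, and, added after the data were seen, probe sets of several genes in the fit.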

Additional observations from a re-analysis of the deposited data

How the results depend on the processing

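All 17 settings gave the members tested a positive median difference. The members tested were 34 in each setting, except for 33 with only probe sets above the 50th percentile. In the settings that kept all 4 arrays, 0 members were lower at an unadjusted limma p under 0.05. The members past the adjusted threshold numbered 13 after median centring, 7 with the values as deposited, 4 with only probe sets above the 50th percentile, under a robust prior, with 1 probe set per gene and with the mean of the probe sets of a gene, and 0 without a trend, with no filter and with probe sets of several genes. With 1 array left out they numbered 0 to 7. Over the whole array the count was 544 with the values as deposited, 913 after median centring, 145 without a filter, 0 with probe sets of several genes (2713 at an unadjusted limma p under 0.05), and 77 to 986 with 1 array left out. The cause of these shifts was not tested. Of the probe sets at an unadjusted p under 0.05, 64.4% were higher as reported and 79.3% after median centring.

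With 1 array left out, the count at an unadjusted p under 0.05 ran from 1685 to 3720 probe sets and from 11 to 20 members, the lowest without knockout array 1. The peroxisomal median was 0.47 after median centring and ran from 0.24 to 0.45 with 1 array left out, and the gap between organelles ran from -0.086 to 0.00682. Signs turned for Cpt1a (0.098), Etfa (0.036), Acot2 (0.00693) and Tek (0.024) with the values as deposited, and after median centring for Cpt1a (0.13), Etfa (0.072), Acot2 (0.043), Tek (0.060) and Adgre1 (0.024). With 1 array left out, Cpt1a ran from -0.077 to 0.051, Fabp3 from -0.053 to 0.60, Ucp3 from -0.17 to 0.20, Cpt2 from -0.017 to 0.36, Acadl from -0.018 to 0.17, Acot2 from -0.32 to 0.094, Krt5 from -0.12 to 0.50, Aldh9a1 from -0.076 to 0.26 and Kdr from -0.10 to 0.47.

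A replicate block on the labels' numbers let 1235 probe sets and 11 members pass. No label ties a number to a litter. The deviations of same-numbered arrays from their genotype's mean correlated at 0.167. Whether such arrays share more than a number cannot be told from the labels.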
